A study of Mus musculus with 6 samples.

Results

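The subject is a set of 9 genes used to mark macrophages in tissue, measured in the inflamed colon of mice that lacked Pparg in myeloid cells and of littermates that kept it. The genes were chosen by name: Cx3cr1, Mertk, Adgre1, Cd163 and Mrc1 as 5 markers of resident macrophages, and Ccr2, Csf1r, Aif1 and Cd68 as 4 markers of recruited cells or of macrophages in general. They are 9 of the 18193 genes that the arrays measure with at least 1 probe set (a group of short probes read as 1 value) naming that gene alone. Together they have 15 such probe sets, and each gene is led by its probe set with the highest mean over the 6 arrays. All mice were C57BL/6, 6 to 8 weeks old, homozygous for a floxed Pparg allele, and had drunk 2.5% dextran sodium sulfate (DSS), which injures the colonic epithelium and causes colitis, with tissue taken on day 7. The 3 deficient mice (PPAR g fl/fl; Lysozyme M cre+) also carried Cre recombinase at the lysozyme M locus, Lyz2, which is active in macrophages, monocytes and neutrophils. The 3 control mice (PPAR g fl/fl; Lysozyme M cre-) did not carry it. Each array held RNA of 1 mouse, labelled as colonic tissue. No mouse with Cre and an intact Pparg was measured, so Cre itself and the loss of Pparg cannot be told apart. No mouse without DSS was measured. In whole tissue, fewer cells of a type and less RNA per cell cannot be told apart either.

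Macrophages of the adult gut are renewed from blood monocytes. CCR2, the receptor for the chemokine CCL2, lets monocytes leave the bone marrow and enter tissue, where under the growth factor receptor CSF1R they mature into cells with CX3CR1, F4/80 (Adgre1), MERTK, CD163 and the mannose receptor CD206 (Mrc1). In colitis that maturation is known to stall, so that inflammatory monocytes accumulate beside the resident cells. PPAR gamma, the product of Pparg, is a nuclear receptor known to restrain inflammatory genes in macrophages.

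PU.1 is the transcription factor that drives many macrophage genes, and GAGGAA is a common form of its sites but not the only one. The stretches below precede the start of 5 of the genes. Aif1, Cd68 and Mrc1 are shown because they hold those letters, and Cd163 and Mertk because they do not, one with a higher and one with a lower mean in deficient colon. They come from RefSeq on GRCm38.p6, are written 5′ to 3′ on the strand of the gene, and carry GAGGAA (or its reverse complement TTCCTC) in capitals. Those of Cd68 (chr11:69666171-69666420, minus strand), Mrc1 (chr2:14229164-14229413, plus strand), Cd163 (chr6:124304401-124304650, plus strand) and Mertk (chr2:128698665-128698914, plus strand) are the 250 bases before the start. For Aif1 the 30 bases that hold its match are given (chr17:35176053-35176082, minus strand).
Cd68: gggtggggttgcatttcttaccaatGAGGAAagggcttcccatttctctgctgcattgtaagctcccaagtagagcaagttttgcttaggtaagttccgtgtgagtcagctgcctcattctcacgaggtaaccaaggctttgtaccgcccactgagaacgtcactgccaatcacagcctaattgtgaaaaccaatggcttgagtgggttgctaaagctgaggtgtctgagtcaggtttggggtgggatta
Mrc1: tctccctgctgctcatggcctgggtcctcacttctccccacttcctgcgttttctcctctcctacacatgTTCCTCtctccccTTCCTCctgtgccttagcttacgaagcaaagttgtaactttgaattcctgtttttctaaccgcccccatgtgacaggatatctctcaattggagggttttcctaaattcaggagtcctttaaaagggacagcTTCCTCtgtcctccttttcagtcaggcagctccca
Cd163: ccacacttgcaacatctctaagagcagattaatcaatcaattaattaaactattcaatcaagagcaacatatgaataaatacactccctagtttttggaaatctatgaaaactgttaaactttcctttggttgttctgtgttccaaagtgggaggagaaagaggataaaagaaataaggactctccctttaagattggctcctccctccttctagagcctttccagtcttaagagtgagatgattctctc
Mertk: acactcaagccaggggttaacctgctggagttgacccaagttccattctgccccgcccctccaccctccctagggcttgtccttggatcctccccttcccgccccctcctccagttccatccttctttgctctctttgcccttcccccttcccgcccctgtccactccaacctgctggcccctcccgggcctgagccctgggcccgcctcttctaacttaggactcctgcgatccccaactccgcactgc
Aif1: tagccgtggtgataggcacccagTTCCTCc
No window of Csf1r or Adgre1 was used, so neither gene was searched. Of the 7 members with a window used here, 3 held the 6 letters on either strand within 250 bases: Mrc1 with 3 matches, Cd68 with 1 and Aif1 with 1. Among all 32851 promoter windows of that length 23.3% held at least 1. The windows of Cx3cr1, Mertk, Cd163 and Ccr2 held none, and other forms of PU.1 sites were not searched for. AGGTCA, the half-site letters of nuclear receptors such as PPAR gamma, was found in 1 of the 7 (Aif1), against 14% of all windows. The matches to these different letters did not overlap in any member, and a match of this kind is a description of the letters and not of binding.

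The arrays were alike in range, with medians of 3.02 to 3.10 on the log2 scale and 41.4% to 42.7% of probe sets above log2 4, but not in tissue profile. Genes of the small intestine were high in control replicate 1 and deficient replicate 3 (Apoa1, an apolipoprotein, at 15.46 and 15.24 against at most 7.38 elsewhere) and little Car1, a colonocyte enzyme (2.83 and 7.02 against at least 13.60). Values are therefore also given for the other 4 arrays alone, called those without small intestine genes, and for the pair. That name stands for lower Apoa1 and higher Car1, not for absence of all such genes. Fabp2, of the small intestine list used below, was at 12.32 and 12.48 in control replicates 2 and 3. It was at 12.19 and 10.65 in deficient replicates 1 and 2, against 15.02 and 13.94 in the pair. Neither set was uniform. Among the 4, Apoa1 was 7.38 in deficient replicate 1 against 3.85 and 3.82 in control replicates 2 and 3, and the pair differed in Car1. Differences within a set are thus not at a matched tissue profile. Control replicate 2 was the sole array with Xist, a transcript of female cells, at 12.11. Pparg itself was 5.28, 9.91 and 9.54 in controls and 8.77, 8.23 and 4.15 in deficient samples (each listed as replicates 1, 2 and 3, as are all triplets below), levels that include epithelial cells without Cre. Lyz2 was at 12.32, 11.79 and 12.19 in controls against 6.80, 6.24 and 10.39 in the mice whose Lyz2 locus carries Cre.

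None of the 9 genes passed the genotype test. In limma's comparison of 10490 genes that were above log2 4 on at least 3 arrays, 0% were called at a Benjamini-Hochberg adjusted p under 0.05, and 783 genes (7.46%) had an unadjusted p under 0.05. Of the 9 markers 8 entered this test, Ccr2 being too low, and 1 of the 8, Aif1, was among the 783 (5.1% of all genes had such a p and a higher deficient mean). Groups did not overlap for 2 of the 8, against 13.5% of all genes tested; Aif1 was the higher one (9.36% of genes) and Cx3cr1 the lower one (4.15%). The deficient mean was higher for 6 of the 8, where 57% of all genes were higher. Among the 4 arrays without small intestine genes 6 of the 8 were higher, against 58.3% of genes, and between the pair 5 of 8, against 50.4%. In those 4 arrays the groups of 6 of the 8 did not overlap, 4 of them higher, where 48.9% of all genes did not overlap and 30.5% did so upwards. Of the 15 marker probe sets 1 had an unadjusted p under 0.05 in the fit over all probe sets, against 3.95% of them. Within this, 3 of 5 resident markers were higher, with a median log2 difference (deficient minus control) of 0.24. Csf1r, Aif1 and Cd68 were all higher, with a median of 1.21, or of 0.92 with Ccr2 included. The median over all genes tested was 0.06.

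**Figure D1:**
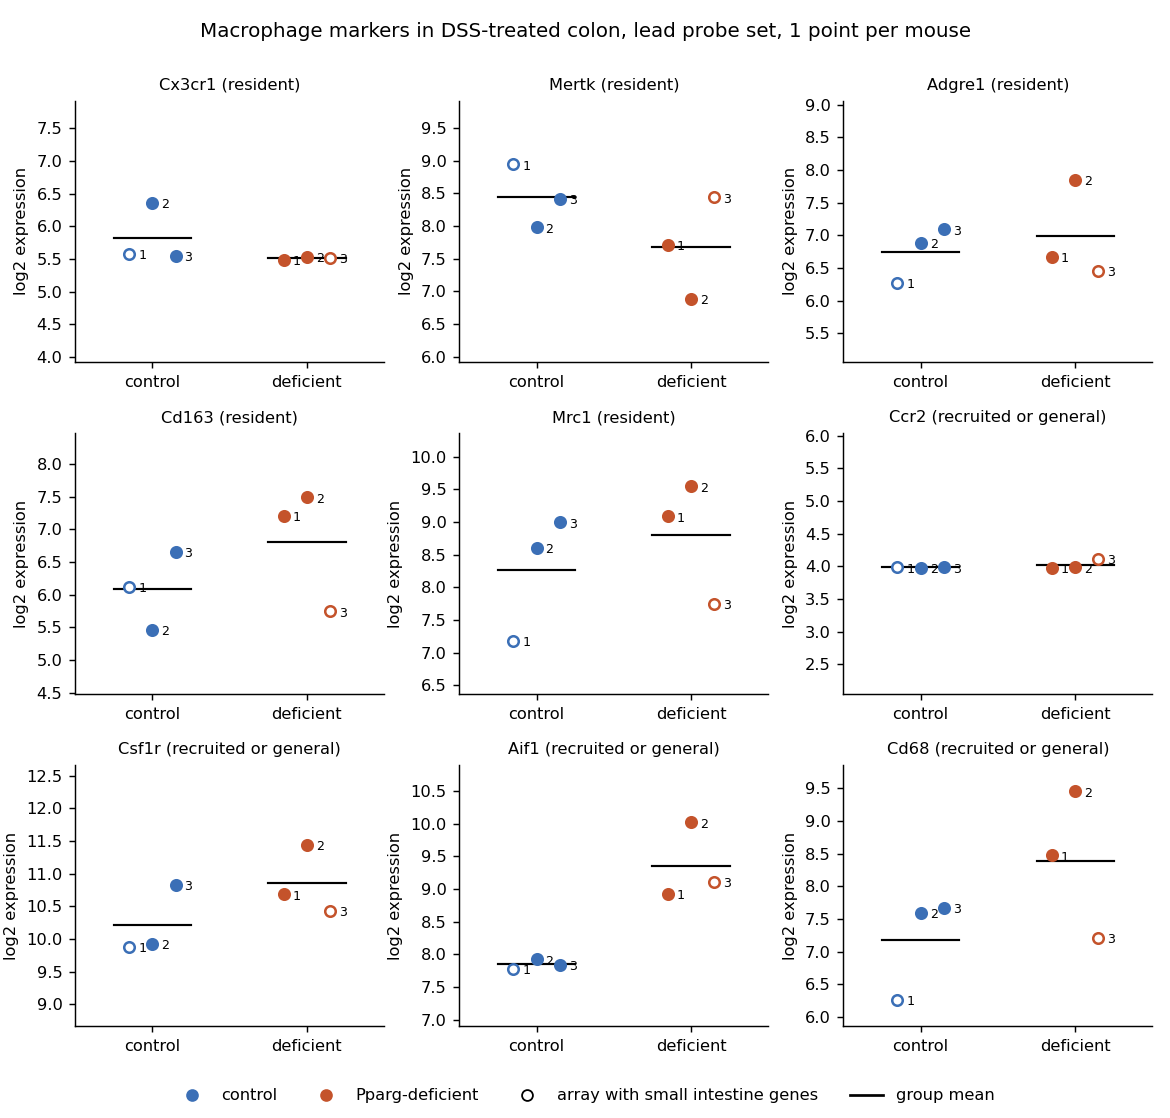
Log2 expression (y axis, the same height of scale in each panel) of the lead probe set of each marker in the 3 control and 3 Pparg-deficient mice, numbered by replicate; lines are group means and open points the 2 arrays with small intestine genes. Aif1 is the marker whose groups stand clearly apart, Ccr2 is almost flat, and Cx3cr1 is flat apart from control replicate 2, at 6.36.

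Among the resident markers, Cx3cr1 encodes the receptor for the membrane-bound chemokine fractalkine. Its lead probe set (1450020_at) read 5.58, 6.36 and 5.54 in controls and 5.49, 5.54 and 5.52 in deficient colon. Every deficient value lay under every control value, but by a gap of only 0.0077. Control replicate 2 stood 0.82 above the mean of the other 5 arrays, which spanned 0.094, and it is the array with Xist, whose part in this value was not tested. The difference of -0.31 (SE 0.26, 95% interval -0.95 to 0.32, limma adjusted p 0.790) shrank to -0.05 without that array. The second Cx3cr1 probe set (1450019_at) was at the lowest deposited value, 2.25, on all 6 arrays. The arrays thus held almost no measured variation of Cx3cr1 outside 1 mouse.

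Mertk, a receptor tyrosine kinase with which macrophages engulf apoptotic cells, was the marker with the lowest difference. It read 8.95, 7.98 and 8.42 in controls and 7.71, 6.89 and 8.44 in deficient samples (1422869_at). In each group the highest value came from the array with small intestine genes, and the groups overlapped through it. The means were 8.45 ± 0.48 (SD, n = 3) and 7.68 ± 0.78, a difference of -0.77 (SE 0.46, 95% interval -1.89 to 0.36, limma adjusted p 0.729). It was -0.90 among the other 4 arrays, where both deficient values lay under both control values, and -0.51 between the pair with small intestine genes. With the tissue profile as a block the unadjusted limma p was 0.0377 and the adjusted p 0.345. The deficient array lowest in Mertk, replicate 2, was the highest array for 6 other markers, and without it the difference was -0.37.

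Adgre1 encodes F4/80, the surface receptor by which mouse macrophages are most often recognised. It was at 6.27, 6.89 and 7.09 in controls and 6.67, 7.85 and 6.46 in deficient samples (1451161_a_at). Deficient replicate 2 alone exceeded the controls. The difference was 0.24 (SE 0.43, 95% interval -0.83 to 1.31, limma adjusted p 0.907), and it turned to -0.19 without that array.

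Cd163, the scavenger receptor for haemoglobin bound to haptoglobin, read 6.12, 5.46 and 6.66 in controls and 7.20, 7.49 and 5.75 in deficient colon (1419144_at). The deficient arrays split: replicates 1 and 2 lay above every control, and replicate 3, with small intestine genes, lay under 2 of the 3 controls. The difference was 0.73 (SE 0.55, 95% interval -0.62 to 2.08, limma adjusted p 0.776), made of 1.29 among the 4 arrays without small intestine genes and -0.37 between the pair with them. It was the sole lead probe set of the 9 whose sign differed between those strata.

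Mrc1, the mannose receptor CD206 and a marker of resident and alternatively activated macrophages, was at 7.18, 8.6 and 9.0 in controls and 9.09, 9.54 and 7.75 in deficient samples (1450430_at). The lowest value of each group came from the array with small intestine genes, which gave both groups wide spreads (SD 0.95 and 0.93). Within each tissue profile the deficient values were the higher ones, by 0.52 among 4 arrays and 0.57 between the pair. The overall difference was 0.53 (SE 0.65, 95% interval -1.07 to 2.14, limma adjusted p 0.859). With the tissue profile as a block the same difference had an SE of 0.20, an unadjusted p of 0.0438 and an adjusted p of 0.362. Without control replicate 1 it was -0.0037, in a fit where only a deficient array carried small intestine genes.

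Turning to recruited cells, Ccr2 could hardly be read on these arrays. Its brightest probe set (1460067_at) lay between 3.98 and 4.11 on all 6 and missed the filter, with a difference of 0.04 (SE 0.04, 95% interval -0.07 to 0.15, limma adjusted p 0.856 over all 34945 single-gene probe sets). Another 2 of its probe sets separated deficient replicates 1 and 2 from the rest. On 1421188_at the controls read 2.48, 2.4 and 2.86 and the deficient samples 4.50, 4.44 and 2.81, a difference of 1.34 (SE 0.55, 95% interval -0.12 to 2.80). On 1421186_at they read 2.28, 2.84 and 2.84 against 4.27, 3.90 and 2.86, a difference of 1.03 (SE 0.44). Both had an adjusted p of 0.856, and at least 4 of the 6 values of each lay under log2 4, where differences are compressed. The last, 1421187_at, was at 2.27 to 3.52. The probe sets of Ccr2 therefore disagree in size, from 0.04 to 1.34.

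Csf1r, the receptor for CSF1 and interleukin 34 on which macrophage survival depends, was well above background on every array. It read 9.88, 9.93 and 10.83 in controls and 10.68, 11.45 and 10.43 in deficient colon (1419872_at), and control replicate 3 lay above 2 deficient samples. The difference was 0.64 (SE 0.38, 95% interval -0.31 to 1.59, limma adjusted p 0.731). It was 0.69 among the 4 arrays without small intestine genes and 0.55 between the pair. The other probe sets of the gene gave smaller values, 0.41 for 1419873_s_at and 0.01 for 1423593_a_at, so the size of the Csf1r difference rests on the probe set used.

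Aif1, which encodes the actin-bundling protein IBA1 of macrophages and microglia, was the most separated marker. Its single probe set (1418204_s_at) was nearly constant in controls, at 7.78, 7.93 and 7.84, and read 8.93, 10.02 and 9.11 in deficient samples. The lowest deficient array stood 1.0 above the highest control. The deficient mean was 9.35 ± 0.58 and the control mean 7.85 ± 0.07 (SD, n = 3 each). They differed by 1.5, with an SE of 0.31 and a 95% interval from 0.74 to 2.27. Its unadjusted limma p of 0.0031 ranked 42nd among 10490 genes and its adjusted p was 0.659, so it was not called. Unlike Cd163, it kept its size across tissue profiles, at 1.59 among 4 arrays and 1.33 between the pair, and was 1.17 without deficient replicate 2. The suffix of the probe set marks probes that may also bind transcripts of other genes.

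Cd68, a glycoprotein of the endosomes and lysosomes of phagocytes, read 6.26, 7.60 and 7.67 in controls and 8.48, 9.46 and 7.22 in deficient colon (1449164_at). As for Mrc1, the lowest value of each group came from the array with small intestine genes. The difference was 1.21 (SE 0.67, 95% interval -0.45 to 2.86, limma adjusted p 0.718), with 1.33 among the 4 other arrays and 0.96 between the pair. Without deficient replicate 2 the difference was 0.67. With the tissue profile as a block its SE was 0.29, the unadjusted limma p 0.0075 and the adjusted p 0.298. For the other markers not given above, that limma fit had unadjusted p of 0.0037 (Aif1), 0.10 (Csf1r), 0.18 (Cd163), 0.27 (Cx3cr1) and 0.49 (Adgre1). The block was set from the expression of these same arrays, and 0 genes were called with it. The share of all genes with an unadjusted p under 0.05 in that fit is not given here. Its unadjusted p values, those of Mertk and Mrc1 included, therefore cannot be read as particular to the markers.

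**Figure D2:**
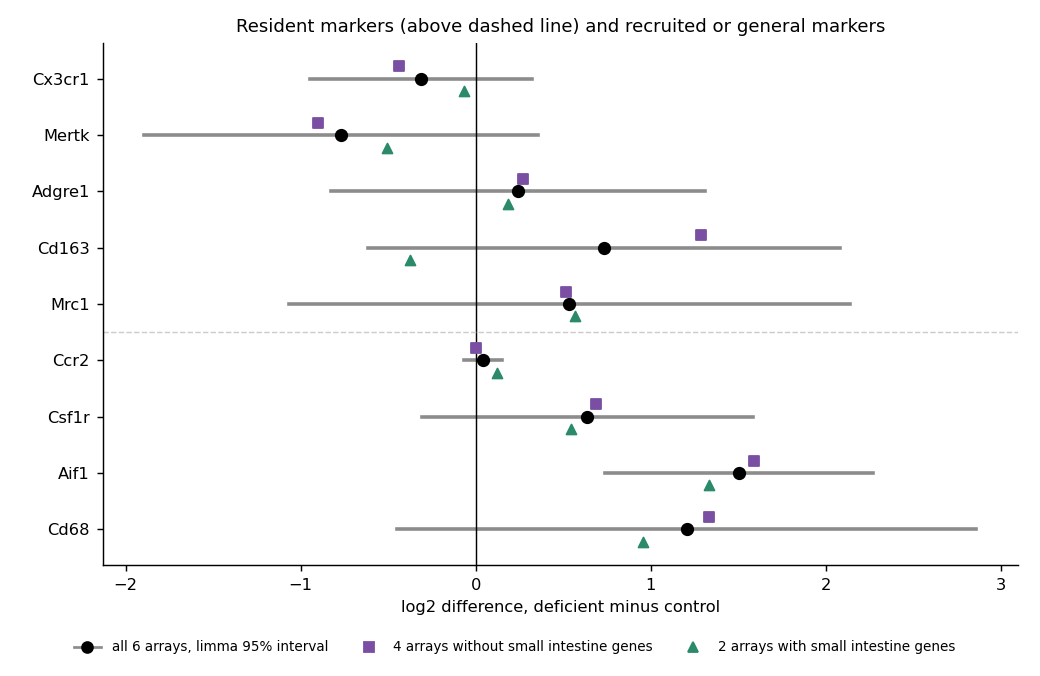
Log2 differences (x axis, deficient minus control) of the 9 lead probe sets: black points and grey bars are all 6 arrays with limma's 95% interval, squares the 4 arrays without small intestine genes and triangles the pair with them. The interval of Aif1, from 0.74 to 2.27, is the one that lies wholly on one side of 0, and Cd163 is the marker whose square (1.29) and triangle (-0.37) fall on opposite sides.

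Resident and general markers were also set against each other within each array, as the median deviation of each set from the control means. The resident set stood at -0.25, 0.14 and 0.34 in controls and at -0.08, 1.10 and -0.31 in deficient samples, so only deficient replicate 2 lay outside the control range on the high side. This median hides a split. On deficient replicate 1 Mertk and Cx3cr1 were at -0.74 and -0.34, Adgre1 at -0.08, and Mrc1 and Cd163 at 0.83 and 1.12. Above all controls were 2, 3 and 0 of the 5 resident markers on deficient replicates 1, 2 and 3. Of the 4 others, Ccr2 included, 2, 4 and 2 were. Csf1r, Aif1 and Cd68 together stood at -0.33, 0.08 and 0.50 in controls and at 1.08, 2.17 and 0.22 in deficient samples. The second median exceeded the first by 1.15, 1.07 and 0.53 in the deficient arrays, and by -0.09, -0.06 and 0.16 in the controls. These groups do not overlap, but the genes were chosen with results of these data known, so no test is attached. The deviations were also taken from the mean of these same controls, which by itself centres the controls near 0 in both sets. With Ccr2 included, the second median was -0.20, 0.04 and 0.25 in controls and 0.77, 1.70 and 0.17 in deficient samples. Deficient replicate 3 then lay within the control range. Deficient replicate 2 was the highest of the 6 arrays for 6 of the 9 lead probe sets (Adgre1, Cd163, Mrc1, Csf1r, Aif1 and Cd68). Without it the median difference was -0.19 over the 5 resident markers and 0.67 over Csf1r, Aif1 and Cd68.

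**Figure D3:**
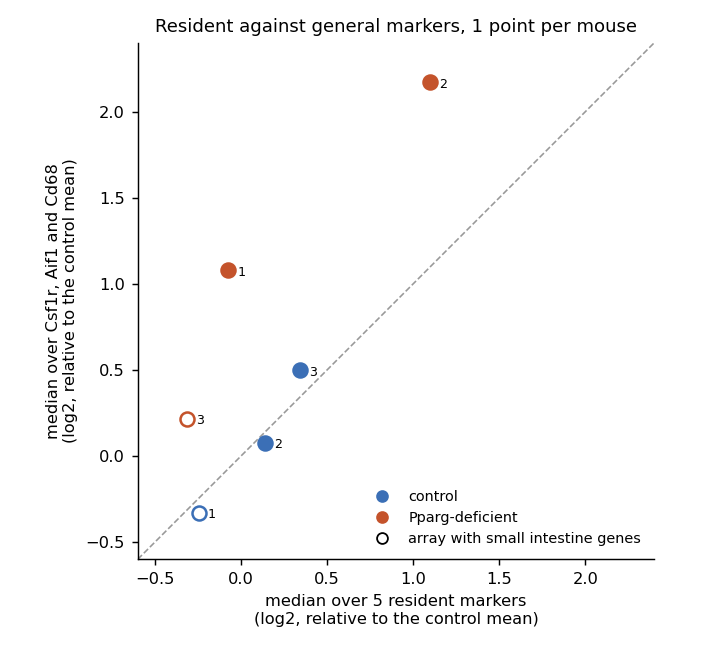
Each point is 1 mouse, with the median log2 deviation from the control mean over the 5 resident markers (x axis) and over Csf1r, Aif1 and Cd68 (y axis); the dashed line marks equal values and open points the arrays with small intestine genes. The 3 deficient mice lie 0.53 to 1.15 above the line and the controls within 0.16 of it. Taking deviations from the control means centres the controls near the line by construction.

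For each marker past the filter, the genes with the most similar course over the 6 arrays were found by the root mean square difference of log2 values after removing each gene's mean. Cd68 was closest to Sirpa, an inhibitory receptor of myeloid cells (0.17), and Dram1, a lysosomal membrane protein (0.18). Aif1 was closest to Lbp, the lipopolysaccharide binding protein (0.16), which differed by 1.47 between genotypes, and Fam111a (0.19). Csf1r ran with Ecm1 and Piezo1, Mrc1 with Cgnl1 and the stromal chemokine Cxcl12, and Adgre1 with the collagen gene Col15a1 and C1qtnf2. Mertk was closest to Lnx1 and Cmbl (0.13 each). Like Mertk, both were highest on the 2 arrays with small intestine genes, with Cmbl at 10.96 and 10.43 there against at most 10.23 elsewhere. Whether Mertk values here come from macrophages or from other cells of the bowel was not tested. Cd163 was closest to Slc25a30 and Akna. Cx3cr1 was closest to Poc5 and Smg6 (0.03 and 0.04), which like it were flat apart from control replicate 2. The closest other marker to Cd68 was Mrc1 at 0.39, ranked 116th when placed among the genes that are neither markers nor predicted transcripts. The closest other marker to Mertk was Cx3cr1 at 0.73. The 8 markers past the filter were thus not each other's closest genes by this measure. It also counts differences in the size of variation, which ran from an SD of 0.34 (Cx3cr1) to 1.09 (Cd68).

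The ligands and partners of the markers showed where values were high. Of 16 listed genes 12 were measured, 10 with a higher and 2 with a lower mean in deficient colon and none called, with a median difference of 0.44. Ccl2, the main ligand of CCR2, was at 4.80, 5.17 and 5.30 in controls and 8.11, 11.33 and 5.25 in deficient samples, a difference of 3.14 (limma adjusted p 0.686). Deficient replicates 1 and 2 were far above the controls and deficient replicate 3 was among them. Its relatives Ccl8 and Ccl12 differed by 1.99 and 1.35 with overlapping groups. Ccl7, a further CCR2 ligand that missed the filter, read 3.12, 3.30 and 3.40 in controls and 5.93, 7.52 and 3.53 in deficient samples, a difference of 2.38. Csf1 differed by 0.70 and reached 8.22 on deficient replicate 2 against 6.16 to 6.92 elsewhere. The fractalkine gene Cx3cl1 differed by 0.04. Of the MERTK ligands, Pros1 differed by 0.46, Gas6 by -0.18 and Lgals3 (galectin 3) by -0.42. Axl, a kinase of the same family, differed by 0.33, and Tyro3, its relative, missed the filter and differed by 0.16. Hmox1, which breaks down the haem taken up through CD163, differed by 1.33 and was highest, at 8.11, on deficient replicate 2. Adam10 and Adam17, proteases that cleave fractalkine and other surface proteins, differed by 0.41 and 0.43. Il34 stayed under log2 4 on all arrays.

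Further lists placed the markers among other phagocyte genes. Monocyte genes had a median difference of 1.51 over the 15 measured of 23 listed, and all 15 were higher, 2 of which had all controls under log2 4 and so could pass the filter only by being higher. Without any filter 20 of 20 with a probe set were higher, where 47.3% of all 18193 genes were. Ccr1, a chemokine receptor, was at 5.86, 5.34 and 5.79 against 7.03, 7.81 and 6.86. Fcgr4, an IgG receptor, differed by 1.84 and the integrin Itgam by 1.76 from control levels under 4. None was called. Groups did not overlap for 6 of the 15, all higher, against 9.36% of all genes tested, and Itgam and Ms4a4c among the 6 are those that could pass the filter only by being higher. Resident macrophage genes other than the 5 were higher for 12 of 15 measured (of 26 listed), with a median of 0.73, or 0.41 without a filter. Fcgr1, the high-affinity IgG receptor, differed by 2.18, and the complement genes C1qb and C1qa by 1.19 and 0.99. Genes shared by phagocytes were higher for 22 of 23 measured, against 57% of all genes, with a median of 1.12. Groups did not overlap for 14 of the 23, against 13.5% of all genes. Among them were Ly86, a secreted partner of RP105 (1.2), Msr1, a scavenger receptor (2.20), and Mpeg1, a pore-forming protein of phagocytes (0.97). The lower one was Lyz2, where Cre is inserted. Without deficient replicate 2 the medians were 0.74 for monocyte genes, 0.25 for resident genes and 0.63 for shared genes. Plac8, Selenop, Maf and Ace in these lists are expressed by other cells of the bowel as well, and differed by 0.40, -0.68, -0.14 and 0.15. They are only examples. Genes with larger differences, such as Itgam (1.76), Thbs1 (2.17) and Vcan (1.68), are not confined to monocytes and macrophages either.

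**Figure D4:**
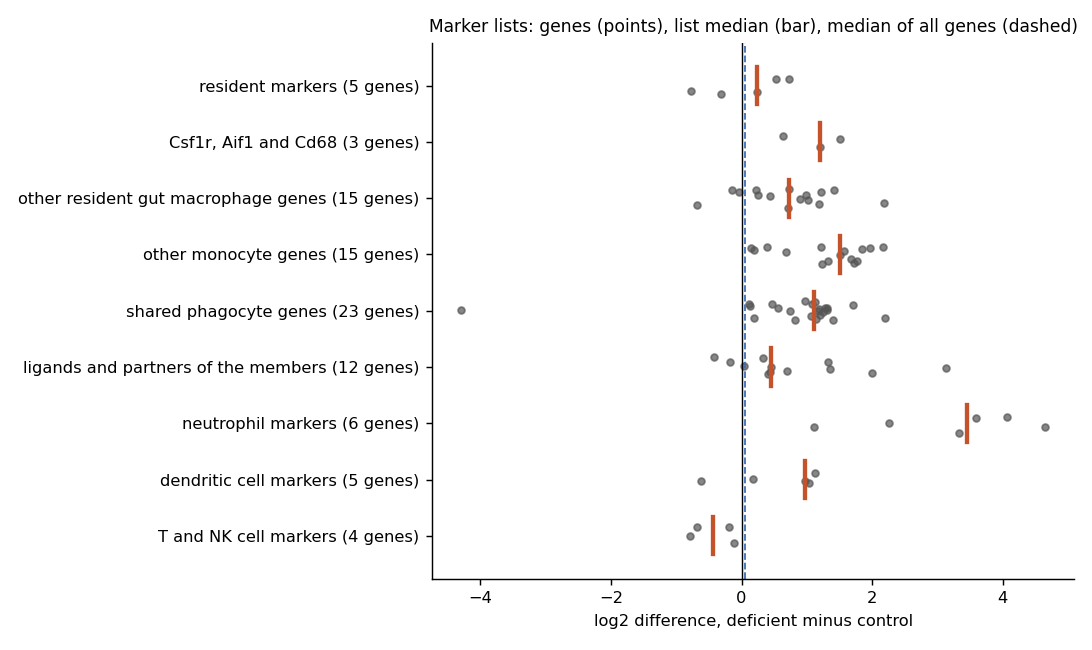
Log2 differences (x axis, deficient minus control) of the measured genes of each list (points), with the list median (bar) and the median of all 10490 genes (dashed line, 0.06). Monocyte (1.51), shared phagocyte (1.12), other resident (0.73) and neutrophil (3.46, or 1.02 without the filter) medians lie to the right of the resident markers (0.24), and Lyz2 is the point at -4.29.

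Markers of other leukocytes were read in the same arrays. The mean level of the 6 measured neutrophil markers (of 18 listed) was 4.38 to 6.18 in controls and 6.24 to 10.25 in deficient samples, highest on deficient replicate 2. All 6 were higher, with a median of 3.46 (2.30 without deficient replicate 2). Il1r2, Lcn2 and Fpr2 had the smallest p, and Il1r2, with all controls under log2 4, could pass the filter only by being higher. Without a filter 15 of 16 were higher and the median was 1.02. Mpo, Elane, Cxcr2 and Ngp, defining genes of neutrophils or their precursors, stayed under log2 4 on all arrays, as did Camp and Ltf. The other 4 that missed the filter differed by 1.80 (Trem1), 2.31 (Stfa2l1), 0.93 (Mmp8) and 0.80 (Csf3r), each highest on deficient replicate 2. Lcn2 is also made by epithelium. Dendritic cell markers had 5 of 12 measured, with list means of 5.39 to 6.15 in controls and 5.89 to 6.50 in deficient samples. Bst2 differed by 1.03, Itgax by 0.97, Ccr7 by 1.13, Batf3 by 0.18 and Itgae by -0.62. Without a filter the list had 6 higher and 3 lower and a median of 0.01, and Xcr1, Cd209a and Siglech were near the lowest deposited value. The 4 measured T and NK cell markers, with Cd3g at -0.79, Gzma at -0.68 and Cd3d at -0.11 the ones of smallest p, had lower means, with a median of -0.44, but of 0.08 among the 4 arrays without small intestine genes. Ptprc, expressed by all leukocytes, was 8.69, 8.59 and 8.27 in controls and 9.16, 9.97 and 8.69 in deficient samples. Epithelial and smooth muscle lists had medians of -0.03 and -0.02. Colonocyte and posterior axis genes were higher for 6 of 6 measured (of 11 listed), with a median of 1.42. It was 1.38 among the 4 arrays without small intestine genes, where Car1 differed by -1.26, and 1.69 between the pair. Without a filter 10 were higher and 1 lower, with a median of 0.55. The lower one, Hoxd10, read 2.27, 6.59 and 6.51 in controls and 3.91, 2.29 and 2.32 in deficient samples. Among the 6 measured, the water channel Aqp4 differed by 3.20, Car4, a carbonic anhydrase, by 1.33 and the chloride exchanger Slc26a3 by 0.43. Groups did not overlap for Aqp4 and Car4, where 9.36% of all genes tested were higher without overlap. Small intestine enterocyte genes had a median of -1.01, with 6 of 7 lower, and Fabp1, Slc10a2 and Fabp2 differed by -1.96, -1.78 and -1.01. The part of these cell types and of the bowel segment in the marker values was not tested.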

How the data were processed

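Total RNA was read on Affymetrix mouse genome arrays, 1 per mouse. The deposited values are log2 expression per probe set, which the authors made; the submitters' processing notes name GCRMA, with version and settings not given in the sources used here. GCRMA subtracts a sequence-based background, so values near the lowest, 2.25, are compressed. Depth does not apply, and 3 arrays per group limit the precision. Gene names came from the platform annotation: 34945 of 45101 probe sets, without array controls, named 1 gene, and all 9 markers matched the reference by Entrez identifier. Each gene was represented by its brightest probe set above log2 4 on at least 3 arrays (10490 genes). The genotype test was two-sided and had no covariate: lmFit and eBayes of limma 3.58.1 (R 4.3.3), with p adjusted by Benjamini-Hochberg across the genes tested. Ccr2 and second probe sets were taken from a fit over all 34945 probe sets without a filter. The procedure was tested on simulated data. The markers and lists were chosen with earlier results of these data known. From each list the 3 measured genes with the smallest p were named, with ligands and partners, the 2 genes most like each marker, and genes that describe the arrays; Ptprc, genes that missed the filter, Ms4a4c, Batf3, Itgae and those given as shared with other cells were named after their values were seen. Alternatives changed the filter, scaling, probe sets, variance model, weights, floor, blocks and arrays. Replicate numbers have no stated pairing.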

Additional observations from a re-analysis of the deposited data

How the results depend on the processing

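No marker passed an adjusted p of 0.05 in any of the settings that could be fitted, and the lowest was 0.1 for Aif1 with array weights. Over all genes, 1 gene was called with probe sets without suffix and 2 with array weights, and 0 in the other 18 alternatives. Mertk, Cx3cr1, Cd163, Csf1r, Aif1 and Cd68 kept their direction in every alternative. Adgre1 turned to -0.217 with array weights and ran from -0.185 to 0.512 when 1 array was left out. Mrc1 ran from -0.0037 to 1.06 and Ccr2 from -0.0011 to 0.067 when 1 array was left out; the mean of all 4 Ccr2 probe sets differed by 0.71. The resident median (0.24) ran from -0.217 to 0.512 and the median of the recruited or general markers, Ccr2 included (0.92), from 0.51 to 1.24. The filter at log2 6 left no value for Cx3cr1 and Ccr2, and probe sets without suffix none for Adgre1 and Aif1. Fits without 1 array compare 3 samples with 2, and the cause of these shifts was not tested. Not every same-numbered pair of arrays deviated together (correlations over genes of -0.543, 0.363 and -0.606). The 2 arrays with small intestine genes, control replicate 1 and deficient replicate 3, correlated at 0.688. These correlations do not separate tissue profile from pairing and so cannot settle it. As no pairing is stated, the numbers were not taken to pair the mice. With the replicate block 0 genes were called, the marker differences were the same, such as 1.5 for Aif1 (adjusted p 0.893), and no call changed.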

Other observations

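All 11 measured fibroblast and endothelial genes had higher means in deficient colon, with a median difference of 0.42 (0.09 without deficient replicate 2, where 7 of 11 were higher), and no member had groups that did not overlap. The collagen genes Col1a1 and Col3a1 differed by 0.95 and 0.53, and the matrix protein gene Lum by 0.54. Adipocyte genes ran the other way: all 5 measured had lower means, with a median of -1.74 and no overlap of the groups for 4, against 4.15% of all genes tested that were lower without overlap, and Adipoq, the adipocyte hormone adiponectin, differed by -1.74, Fabp4, a fatty acid carrier that macrophages also make, by -0.97 and Cidec, a lipid droplet protein, by -2.26. Of plasma cell genes, Jchain, the joining chain of secreted antibodies, differed by -2.26 and Mzb1 by -1.89. Siglecf and Kit, of the eosinophil and mast cell list, differed by -0.36 and -0.16. The epithelial genes of smallest p, Cldn3, Vil1 and Cdh1, differed by -0.14, -0.36 and 0.08, and the smooth muscle genes Myh11, Lmod1 and Cnn1 by -0.26, -0.19 and 0.32. None of these genes was called by limma at an adjusted p of 0.05.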
